A study of Mus musculus with 3 samples.

Results

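The transcription factor p53 and the genes it is known to activate were examined in mouse embryoid bodies that carried wild-type or substituted human BRCA1. The list held 34 genes, taken by name for known roles in feedback on p53, cell cycle arrest, stress metabolism, apoptosis and DNA repair. A gene was measured where a probe set carried its symbol alone in the platform annotation, and its brightest probe set, by the mean of the 3 arrays, stood for it. In this way 30 of the 34 genes were measured, among 18193 genes in all, while Trp53 itself, Bax, Fdxr and Gdf15 were not analysed here. The level of p53 mRNA was therefore not read, and the account below is of its targets.

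An embryoid body is a ball of embryonic stem cells that differentiates while it floats in the medium, and total RNA was taken on day 7 from bodies of strain 129S7/SvEv Brd-Hprt b-m2. The WT bodies carried human BRCA1 without a substitution, the MI bodies carried human BRCA1 with M1652I, and the RQ bodies carried R1699Q, which the text of that array alone spells R1669Q while the design of the series has R1699Q. All 3 groups thus share the human gene, and whether mouse Brca1 was still active, or how many clones stand behind a genotype, the sources do not say. Feeder cells were plated out before the bodies were formed. With 1 Affymetrix array for each genotype there is no replicate, so the spread between cultures is unknown and no difference below could be tested.

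p53 is held low in unstressed cells because its target Mdm2 marks it for degradation. DNA breaks and other stress release it, and it then binds its response elements and raises genes that stop the cell cycle, start apoptosis or aid repair. BRCA1 acts in the repair of DNA breaks, and loss of BRCA1 is known to bring p53 into action in mouse embryos. Embryonic stem cells are known to keep a short G1 phase and to favour differentiation or death over lasting arrest.

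The p53 targets as a group read close to WT on both mutant arrays. Differences are given in log2 units, first array minus second, so that 1 is 2-fold and 0.58 is 1.5-fold. Genes were counted where the mean over the 3 arrays reached the median of all probe sets (log2 6.31, called the level filter below), and 28 of the 30 measured targets did, all but Plk3 and Tnfrsf10b. In RQ against WT 0 of these 28 targets reached 2-fold in either direction, where 3.20% of all 11969 genes at that level did. In MI against WT it was again 0 of 28, against 3.12% of all genes. Between the mutants 2 of 28 did, Gadd45a and Zmat3, both higher in RQ, against 2.62% of all genes. Counts this small among 28 genes lie near those shares and are no result about the targets. The median difference of the 30 measured targets was 0.08 in RQ against WT, 0.03 in MI against WT and 0.08 in RQ against MI, where all genes had medians of 0.00, 0.06 and -0.06.

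**Figure D1:**
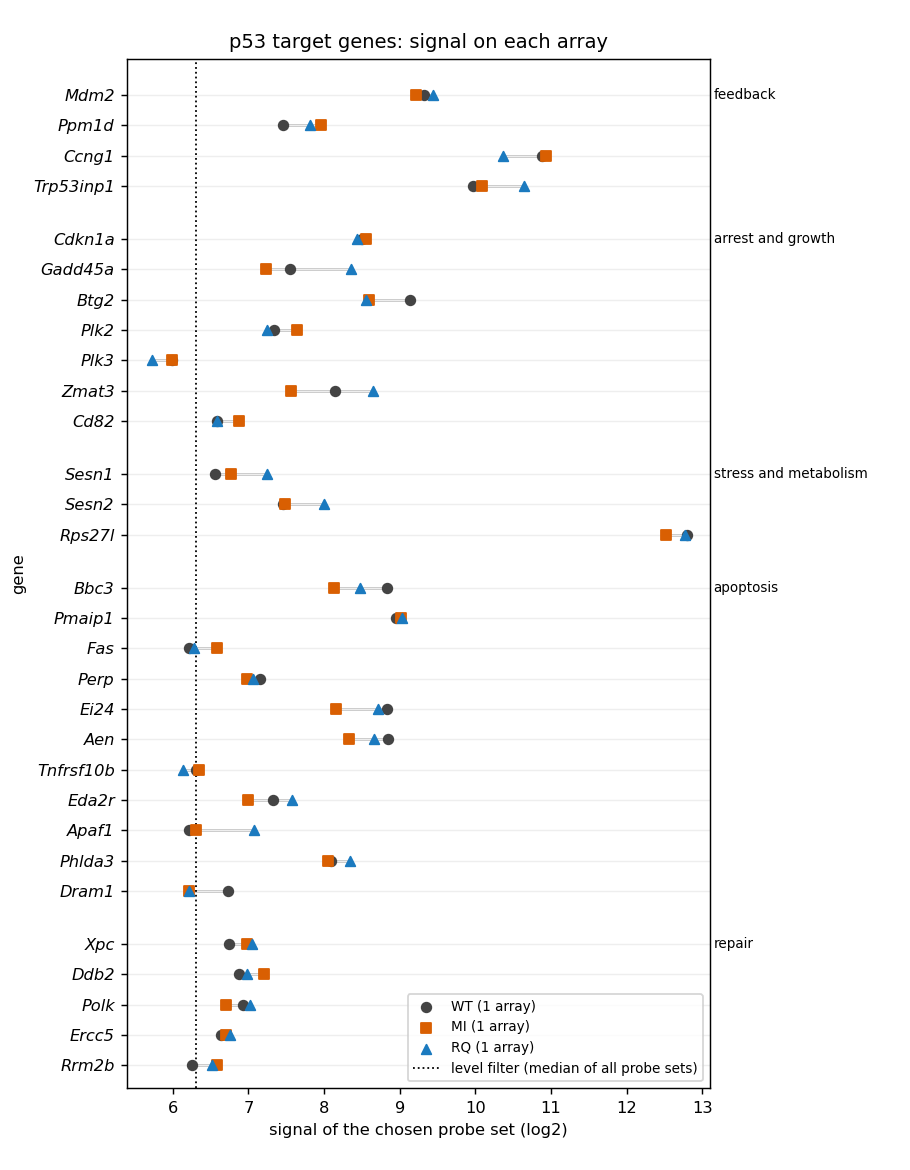
Log2 signal of the chosen probe set of each of the 30 measured p53 targets on the WT, MI and RQ arrays (1 array each, no error bars), grouped by role, with the level filter of 6.31 as a dotted line. The 3 symbols of a gene mostly lie close together, and the widest gaps are those of Gadd45a (7.23 to 8.36) and Zmat3 (7.56 to 8.65).

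At the 1.5-fold limit a few targets passed. In RQ against WT 4 of 28 (14.3%) were higher, namely Apaf1, Gadd45a, Trp53inp1 and Sesn1, against 6.89% of all genes, and 1 of 28 (3.57%), Btg2, was lower, against 4.30%. In MI against WT 0 of 28 were higher, against 1.96% of all genes, and 2 of 28 (7.14%), Bbc3 and Ei24, were lower, against 8.46%. In RQ against MI 3 of 28 (10.7%), Gadd45a, Zmat3 and Apaf1, were higher, against 10.1%, and 0 were lower, against 1.54%. Counts this small among 28 genes are again no result about the targets. Apaf1 passed the level filter through its RQ signal (7.07), with 6.21 in WT and 6.31 in MI. Its place among the genes higher in RQ is therefore no support for a shift in either comparison. For Sesn1 no other probe set lay more than 0.41 above WT in RQ, short of 1.5-fold. When all probe sets of a gene were averaged, the 4 genes higher in RQ were 2, Gadd45a and Apaf1, against 3.98% of all genes. Btg2 then no longer reached the limit, where 3.07% of all genes were lower. In MI against WT that average added Plk2 as higher, against 1.19% of all genes. After the lowess correction, which removes differences that follow the level of the signal, Dram1 took the place of Bbc3 and Ei24 as lower in MI, against 6.33%. With the arrays quantile-normalized again Ppm1d was higher in MI, against 4.24%, and 0 were lower, against 5.12%. In RQ against MI Ccng1 was lower under both of these scalings, against 2.47% after the lowess correction and 3.52% after the quantile normalization. Eda2r was also higher after the lowess correction, where 6.68% of all genes were. The comparisons with WT share the WT array and those with MI share the MI array, so their counts are not independent of each other. In bulk samples such as these, fewer cells of a type and less RNA per cell cannot be told apart.

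**Figure D2:**
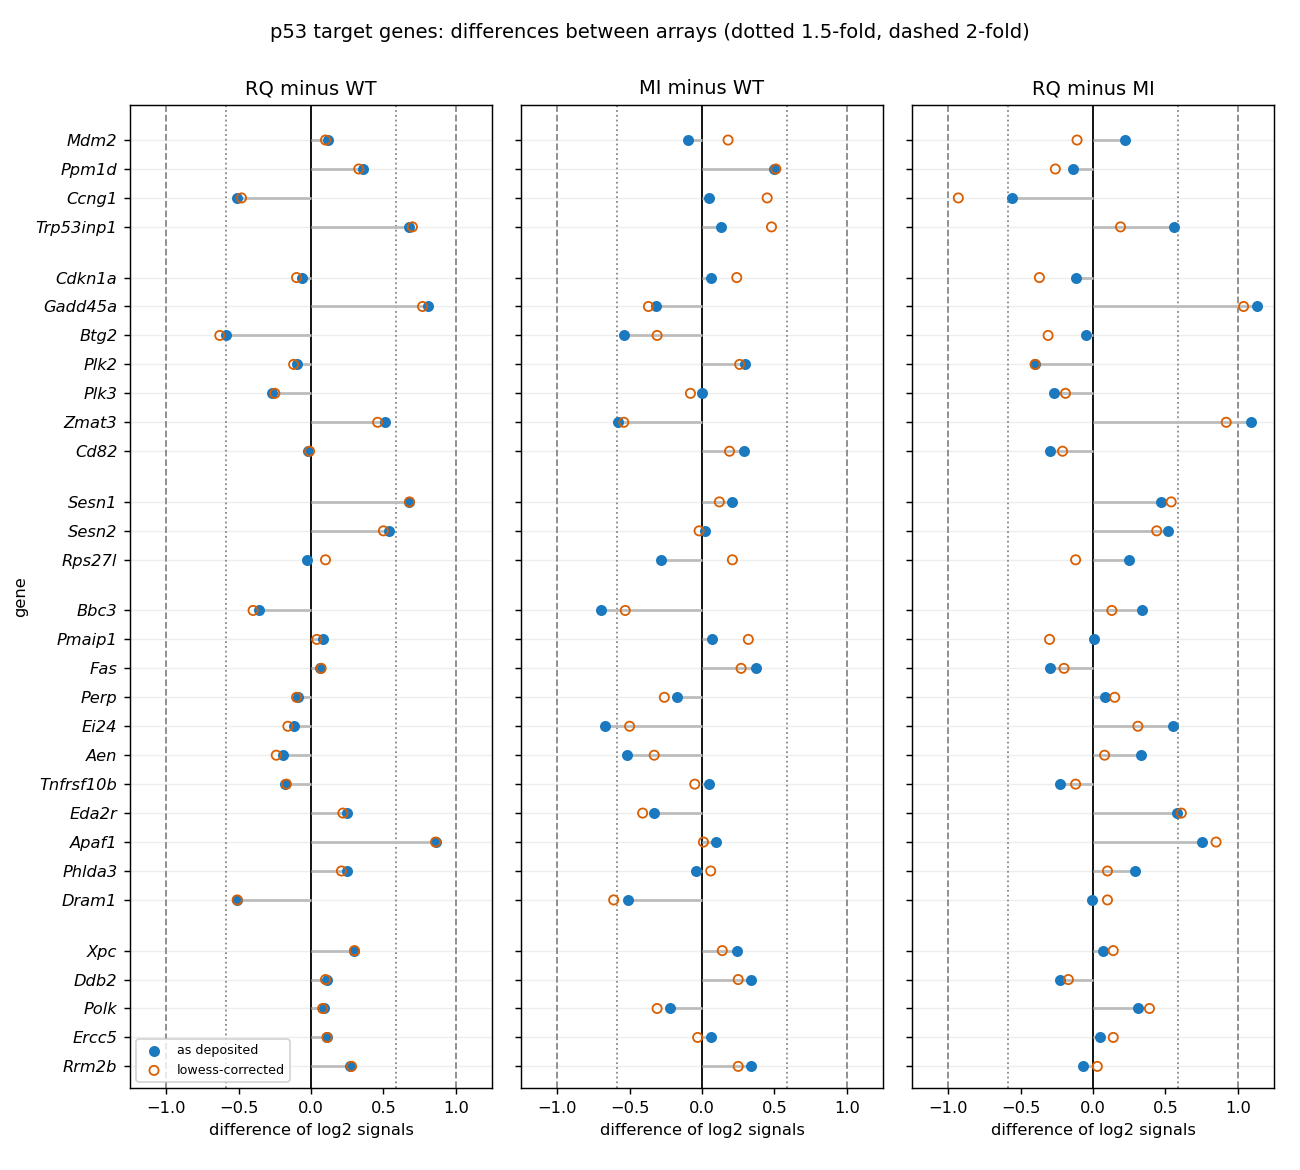
Difference of log2 signals for each measured p53 target in RQ minus WT, MI minus WT and RQ minus MI, as deposited (filled) and after a lowess correction for mean level (open), with 1.5-fold and 2-fold marked by dotted and dashed lines. Every filled point lies inside 2-fold in the comparisons with WT, and the 2 filled points past 2-fold in RQ minus MI are Gadd45a (1.13) and Zmat3 (1.09), of which only Gadd45a (1.04) remains past it after the correction.

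The targets can be set beside the sequence that p53 binds. The p53 response element is 2 copies of a 10-base unit, in which a C and a G frame 2 bases that are A or T. The form with the 2 copies in direct succession was taken here. It was searched, on both strands, in windows of 250 bases before to 50 after each start site in RefSeq (GRCm38.p6), of which 37 belonged to 26 of the 34 listed genes. With at most 1 mismatch to the 20-base consensus, 3 of the 37 windows (8.11%) held a match, against 0.0883% of all 32851 windows. With at most 3 mismatches, 11 of the 37 (29.7%) did, against 6.29% of all. These genes were listed as known targets of p53, so the difference in shares is a description of the list, and a match is not shown to be bound. The first 3 matches below are those with 1 mismatch, and the next 3, with 3 mismatches each, belong to genes whose arrays lay 1.5-fold or more apart. Capitals mark the central 4 bases of each unit.
Cdkn1a (chr17:29090928-29090947, plus strand, 51 bases before an upstream start): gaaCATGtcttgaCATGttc
Ccng1 (chr11:40755462-40755481, minus strand, 195 bases before the start): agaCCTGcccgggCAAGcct
Rps27l (chr9:66946296-66946315, plus strand, 117 bases before a start): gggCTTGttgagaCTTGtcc
Bbc3 (chr7:16309486-16309505, plus strand, 97 bases before the start): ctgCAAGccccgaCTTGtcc
Sesn1 (chr10:41887266-41887285, plus strand, 173 bases before a start): aagCTTGtttttgCTGGcct
Gadd45a (chr6:67037632-67037651, minus strand, 244 bases before the start): aaaCTACctagagCTGGctc

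As deposited, the chosen probe sets of the genes with the closest matches were not those that differed most between arrays. Those of Cdkn1a and Rps27l stayed within 0.28 of WT on both mutant arrays. Other probe sets lay further off, with Rps27l at -0.41 in MI and Cdkn1a, below the level filter, at -0.30 in RQ. Ccng1 gave readings that disagreed between its probe sets (below). After the lowess correction its RQ minus MI was -0.93, beside 1.04 for Gadd45a. Elements further from the start than these windows, or with bases between the 2 units, were not searched.

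The feedback genes act on p53 itself. Mdm2, the ubiquitin ligase that degrades p53 and is among its most sensitive targets, read 9.32 (WT), 9.22 (MI) and 9.44 (RQ). The 3 arrays thus lay within 0.22 of each other. The place of MI turned with the scaling: MI minus WT was -0.10 as deposited and 0.18 after the lowess correction, and RQ minus MI was 0.22 and -0.11. A second Mdm2 probe set read 8.54, 8.66 and 8.89, with RQ the highest, and the third, near the level filter, read 6.38, 6.46 and 6.27, with RQ the lowest. Ppm1d, the phosphatase that switches the p53 response off, read 7.46 (WT), 7.96 (MI) and 7.82 (RQ). Both mutants were above WT, by 0.50 and 0.36, short of 1.5-fold as deposited, while MI reached it (0.64) with the arrays quantile-normalized again.

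Trp53inp1, a nuclear protein that strengthens the response of p53 to stress, read 9.97 (WT), 10.09 (MI) and 10.65 (RQ). RQ stood apart from the other two, 1.61-fold above WT, and the second probe set showed the same order at a smaller distance (7.73, 7.76 and 8.08). In RQ against MI the difference of 0.56 was 0.19 after the lowess correction, because the MI array read lower than the others at high signal. Among all genes at levels of 10 to 12 the median of MI minus WT was -0.39, at levels of 8 to 9 it was -0.22, and at levels of 6 to 7 it was 0.10.

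Ccng1, which encodes cyclin G1, a partner of Mdm2, gave no single answer. Its brightest probe set read 10.88 (WT), 10.93 (MI) and 10.37 (RQ), so that RQ was the lowest by 0.51. Another read 8.81, 9.50 and 9.75, so that RQ was the highest, 0.95 above WT, and the third read 9.49, 9.70 and 9.82. With the mean of the 3 probe sets RQ lay 0.26 above WT. The direction of Ccng1 in RQ therefore rests on the choice of probe set, and it was singled out here after its values were seen.

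Of the genes of cell cycle arrest and growth control, Cdkn1a comes first, since its product p21 inhibits the cyclin-dependent kinases of G1 and is the main arm of arrest by p53. It read 8.50 (WT), 8.56 (MI) and 8.44 (RQ). The arrays lay within 0.12 of each other, and the second Cdkn1a probe set, below the level filter, read 6.26, 6.24 and 5.97. MI lay above WT by 0.24 after the lowess correction and by 0.36 with the arrays quantile-normalized again, and RQ minus MI then moved from -0.12 to -0.37 and -0.46. Neither mutant stood 1.5-fold from WT under these settings at the gene most used as a readout of p53.

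Gadd45a, a stress protein that acts on the G2 checkpoint and on stress kinases, read 7.55 (WT), 7.23 (MI) and 8.36 (RQ). It gave the widest gap of all the targets, with RQ 1.76-fold above WT and 2.19-fold above MI. Zmat3, an RNA-binding protein that p53 uses to control splicing and growth, read 8.14 (WT), 7.56 (MI) and 8.65 (RQ). The order of the arrays was the same as for Gadd45a, with MI 0.58 below and RQ 0.51 above WT, and RQ 2.13-fold above MI. The MI difference, -0.584 before rounding, fell just short of the 1.5-fold limit of 0.585, which is why Zmat3 was not counted as lower in MI, and Btg2 in RQ, at -0.587, lay just past it. Each of these genes had 1 probe set, so no second reading stood beside it. After the lowess correction RQ minus MI was 1.04 for Gadd45a and 0.92 for Zmat3, and with the arrays quantile-normalized again it was 0.99 and 0.89, so that neither gene then reached 2-fold.

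Btg2, an antiproliferative protein that p53 raises early, went the other way. It read 9.14 (WT), 8.59 (MI) and 8.55 (RQ), and its second probe set read 7.59, 7.18 and 7.18. WT was the highest array on both, with RQ 0.59 and MI 0.54 lower on the brighter probe set. For MI the difference was -0.31 after the lowess correction. The kinase gene Plk2 read 7.34 (WT), 7.64 (MI) and 7.24 (RQ), and its other probe set placed MI 0.94 above WT (6.96 and 7.90). Cd82, a membrane protein that restrains cell movement, differed from WT by 0.29 in MI and -0.02 in RQ. The related kinase gene Plk3 lay below the level filter on every array, at 5.99, 5.99 and 5.72.

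Among the stress and metabolism genes, the sestrins read higher in RQ. Sestrins are stress proteins that restrain the growth kinase mTORC1. Sesn1 read 6.56 (WT), 6.77 (MI) and 7.25 (RQ), and Sesn2 read 7.46, 7.48 and 8.00. RQ was the highest array for both, 1.61-fold above WT for Sesn1 and 1.45-fold for Sesn2, while MI lay within 0.21 of WT. The second Sesn2 probe set gave almost the same differences (0.52 in RQ and 0.06 in MI). For Sesn1 the chosen probe set can match several transcripts, and without such probe sets the RQ difference was 0.40, short of 1.5-fold. Rps27l, a ribosomal protein that stabilises p53, read 12.80 (WT), 12.52 (MI) and 12.77 (RQ). It has a near-identical relative, Rps27, so its signal may hold reads of both.

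The apoptosis genes were measured at 11 of 12 places. Their median difference was -0.09 in RQ and -0.17 in MI against WT, and 0.29 in RQ against MI (0.10 after the lowess correction). The BH3-only gene Bbc3, which encodes Puma, a direct trigger of mitochondrial death, read 8.83 (WT), 8.13 (MI) and 8.47 (RQ). Both mutants were below WT, MI by 0.70 (1.63-fold) and RQ by 0.36. Pmaip1, which encodes the related protein Noxa, read 8.95, 9.02 and 9.03 and so lay within 0.08 on the 3 arrays.

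Ei24, a protein of the endoplasmic reticulum with a part in autophagy, read 8.83 (WT), 8.16 (MI) and 8.71 (RQ), and Aen, a nuclease of apoptotic cells, read 8.85, 8.33 and 8.66. For both of these and for Bbc3 MI was the lowest array and WT the highest. After the lowess correction the MI differences were -0.53 for Bbc3, -0.50 for Ei24 and -0.33 for Aen, so that none reached 1.5-fold. At levels of 8 to 9 the 7 targets had a median of -0.52 in MI against WT, while the quartiles of all 1395 genes at that level were -0.54 and 0.09.

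Apaf1, the scaffold of the apoptosome on which caspase-9 is activated, showed the reverse. It read 6.21 (WT), 6.31 (MI) and 7.07 (RQ). RQ was 1.81-fold above WT and 1.69-fold above MI, and the second probe set read 5.83, 5.92 and 6.52 in the same order. The WT and MI signals lay at or below the level filter, so Apaf1 passed the filter through its RQ signal and is no support for a shift of the list.

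The receptor genes of this group stayed under 1.5-fold between arrays as deposited. Eda2r, a receptor of the tumour necrosis factor family, read 7.32 (WT), 6.99 (MI) and 7.57 (RQ), which is just under 1.5-fold between the mutants. After the lowess correction that difference was 0.61, past 1.5-fold. Fas, a receptor of the same family, read 6.22, 6.59 and 6.28 and passed the level filter through MI alone. Tnfrsf10b, the receptor for the ligand Trail, lay near or below the filter at 6.31, 6.35 and 6.13. Phlda3, which blocks the kinase Akt, read 8.09, 8.05 and 8.34, and the membrane protein gene Perp read 7.15, 6.98 and 7.06. Dram1, which links p53 to autophagy, read 6.73 in WT and 6.22 on both mutant arrays, and so passed the filter through WT.

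The chosen probe sets of the 5 repair genes read above WT in RQ by 0.09 to 0.30, where 49.1% of all genes read above WT, and no gene of the group reached 1.5-fold in any comparison as deposited. The sign rests on the probe set for Ddb2 and Ercc5, whose other probe sets, below the level filter, read 0.17 and 0.10 below WT and whose means over probe sets differed by -0.03 and 0.01. Xpc and Ddb2, which find ultraviolet damage for nucleotide excision repair, read 6.74 and 6.87 in WT, 6.98 and 7.21 in MI, and 7.05 and 6.98 in RQ. Rrm2b, the p53-dependent ribonucleotide reductase subunit, read 6.25, 6.59 and 6.52. Ercc5, the endonuclease of excision repair, read 6.64, 6.71 and 6.76, and Polk, a polymerase that copies past damaged bases, read 6.93, 6.71 and 7.02. All of these signals lay within 1 log2 unit of the level filter, where RMA values are compressed.

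Over the 28 targets above the level filter RQ was the highest array for 13 (46.4%), MI for 8 (28.6%) and WT for 7 (25%). Among all genes above the filter RQ was the highest for 31.0%, MI for 42.6% and WT for 26.3%. RQ was the lowest array for 6 of the 28 targets (21.4%), MI for 11 (39.3%) and WT for 11 (39.3%), where all genes had 33.4%, 30.4% and 36.3%. These places count gaps of any size, as deposited, and the shares are not matched for level. The place of MI depended on level. The all-gene median of MI minus WT was 0.10 at levels of 6 to 7 and -0.22 at levels of 8 to 9. The 30 measured targets had a mean level of 7.82 in WT, where all 18193 genes had 6.91.

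**Figure D3:**
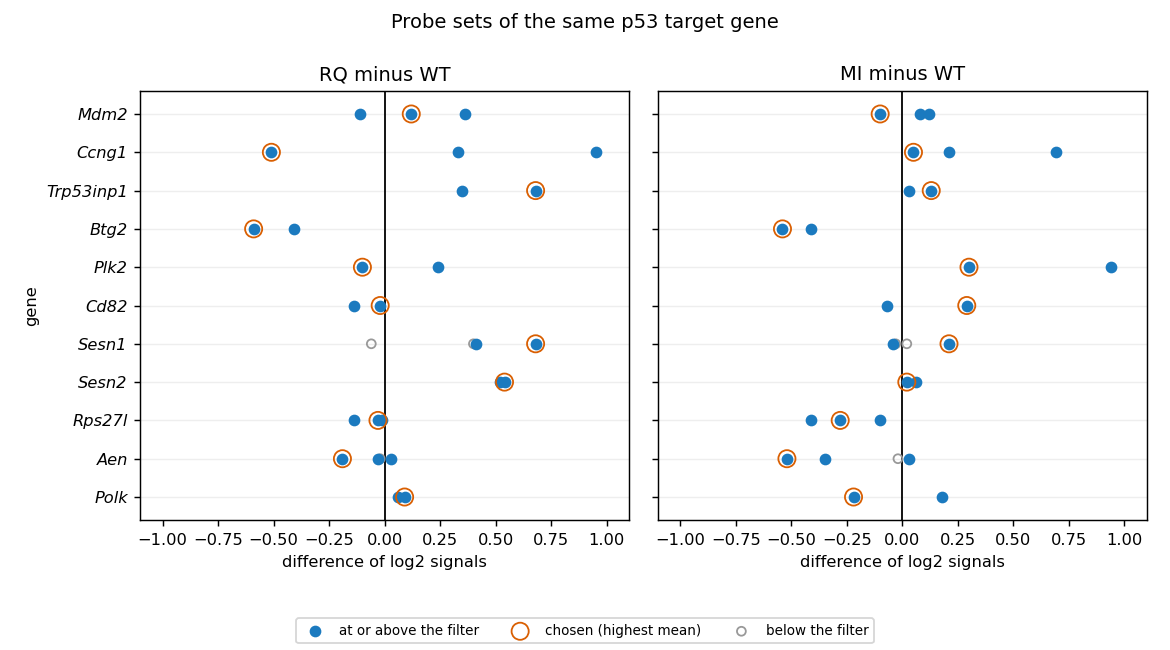
Difference of log2 signals against WT for every probe set of the 11 p53 targets with more than 1 probe set at or above the level filter, in RQ (left) and MI (right), with the chosen probe set ringed. In RQ 7 of the 11 genes have all such probe sets on 1 side of 0, and the widest spread is that of Ccng1, from -0.51 to 0.95.

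Probe sets of the same gene give the only repeat readings in these data, and they show how far a difference rests on the probe set chosen. Of 11 targets with more than 1 probe set at or above the level filter, 7 had differences of 1 sign in RQ against WT and 6 in MI against WT. In RQ these included Trp53inp1, Btg2, Sesn1 and Sesn2, while those of Aen, Ccng1, Mdm2 and Plk2 lay on both sides of 0. The same counts were not taken over all genes, so they are no result about the targets. Probe sets share the RNA and the array, so they are not replicates of a genotype and cannot show the spread between cultures.

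The other genes of the pathway were read from lists of regulators of p53, further targets, the BCL2 family with caspases, and cell cycle genes that are known to fall when p21 is raised. Of 18 regulators above the filter, 8 (44.4%) stood 1.5-fold or more above WT in RQ, against 6.89% of all genes, and 1 was lower, against 4.30%. In MI 0 passed the limit as deposited, where 1.96% of all genes were higher and 8.46% lower. The 8 were the damage kinases Atm, Atr and Chek2, the stress kinase Mapk14, and Ep300, Crebbp, Sirt1 and Usp7. When all probe sets of a gene were averaged, 3 of them, Chek2, Ep300 and Sirt1, passed the limit, against 3.98% of all genes. With the arrays quantile-normalized again 6 of the 8 did, against 5.76%, and Trp53bp1 was higher in MI, against 4.24%. The list's median was 0.13 in RQ and 0.03 in MI. Ep300, a histone acetyltransferase that p53 recruits as a coactivator, read 7.00 (WT), 6.92 (MI) and 8.22 (RQ). Sirt1, a deacetylase that acts on p53 and many other proteins, read 7.45, 7.77 and 8.65. RQ stood above both other arrays for these genes, 2.31-fold and 2.29-fold above WT, and each had 1 probe set.

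Usp7, the deubiquitinase that stabilises Mdm2 and p53, read 8.41 (WT), 8.02 (MI) and 9.13 (RQ). Its probe sets above the filter ranged from -1.14 to 1.09 in RQ against WT, so they did not give 1 direction. Trp53bp1, which encodes a p53-binding protein that steers the repair of DNA breaks, read 7.84, 8.26 and 7.23. RQ was the lowest array, 2.04-fold below MI, and its other probe set above the filter gave -0.28.

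Of the further targets, 18 of 27 measured were above the filter, and their median difference over all 27 was 0.04 in RQ and 0.08 in MI against WT. Ccnd1, which encodes cyclin D1 and is driven by many growth signals besides p53, read 6.83 (WT), 9.52 (MI) and 7.28 (RQ), so that MI stood 6.47-fold above WT. Its 3 probe sets, all above the filter, ranged from 1.43 to 2.69 in MI against WT. Pltp, a phospholipid transfer protein, read 8.98, 7.88 and 8.10, and the kinase gene Cdc42bpg read 8.12, 7.22 and 7.37, with WT the highest array for both. Slc19a2, a thiamine transporter, read 7.59, 7.96 and 8.64, with RQ 2.07-fold above WT.

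The BCL2 family and caspases had medians of -0.01 in RQ and 0.02 in MI against WT, over 18 genes. Bcl2l11, which encodes the BH3-only protein Bim, read 7.04 (WT), 7.39 (MI) and 8.32 (RQ). On the chosen probe sets as deposited it was the only gene of these 18 past 2-fold, in RQ against WT, where 3.20% of all genes were. It stood 2.43-fold above WT, with 0.72 as the log2 difference from the mean of its probe sets. Bim is chiefly under the control of FOXO factors and ERK, which is background and was not examined. The other genes named by the rule were Cycs (11.28, 11.90 and 11.68), which encodes cytochrome c, and the apoptosis inhibitors Xiap (8.71, 8.12 and 8.73) and Birc2 (7.20, 6.62 and 7.15), both lowest in MI. Other Xiap probe sets differed by as little as 0.01 in MI. Another Cycs probe set lay 1.06 above WT in RQ, and the chosen one lay 1.06 above WT in MI after the lowess correction. In RQ against MI the Cycs probe sets ranged from -0.22 to 0.55.

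The cell cycle genes known to fall with p21 had a median of 0.01 in RQ and -0.43 in MI against WT, and all 13 measured read below WT in MI, where 36.5% of all genes did. After the lowess correction 10 of the 13 read below WT in MI, and the median was -0.35. Bub1 read 10.72 (WT), 9.98 (MI) and 10.89 (RQ), Plk1 read 8.02, 7.59 and 8.49, Kif2c read 7.41, 6.91 and 7.75, and Aurka read 8.63, 7.90 and 8.62. These genes of mitosis were lowest in MI throughout, and 4 of the 13, Bub1, Aurka, Mki67 and Cdc20, were at least 1.5-fold below WT, against 8.46% of all genes, of which Aurka remained after the lowess correction and 0 with the arrays quantile-normalized again. The all-gene median in MI at levels of 8 to 12 was itself between -0.22 and -0.39. Cdkn1a differed from WT in MI by 0.06 as deposited, 0.24 after the lowess correction and 0.36 with the arrays quantile-normalized again. The part of p21 or of the signal level in these readings was not tested.

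**Figure D4:**
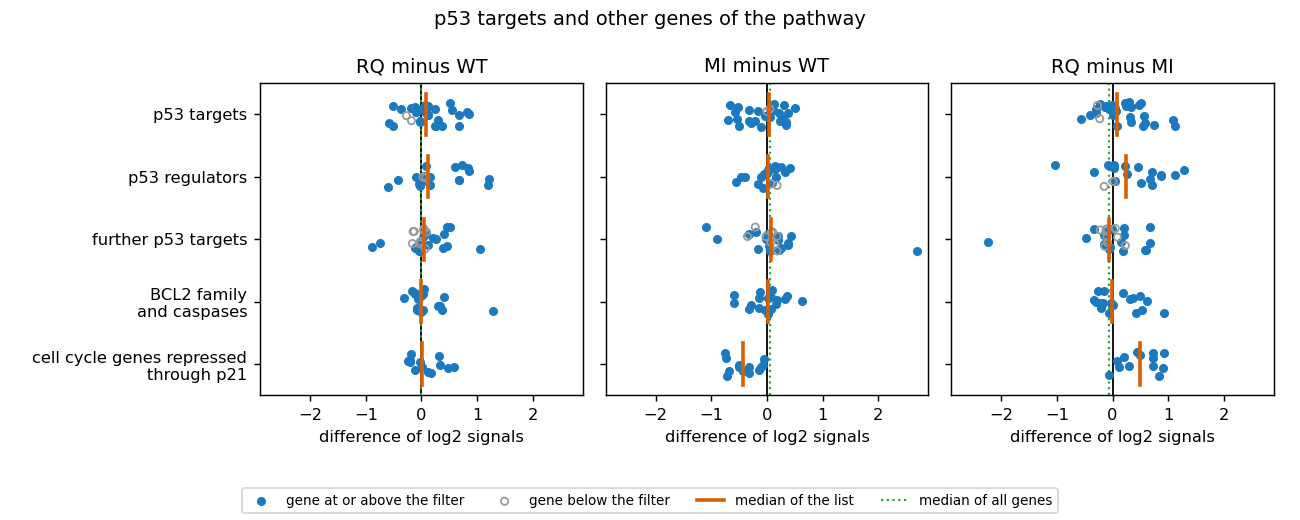
Difference of log2 signals of the measured p53 targets and of 4 other gene lists of the pathway in RQ minus WT, MI minus WT and RQ minus MI; each point is a gene, filled when at or above the level filter, with the list's median as a bar and the median of all genes as a dotted line. The p53 targets centre near 0 (medians 0.08, 0.03 and 0.08), and the cell cycle genes centre at -0.43 in MI minus WT.

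The make-up of the bodies differed between the arrays alongside these readings. As a check of the label, 10 of the 14 extraembryonic endoderm markers, such as Cubn, Lama1 and Sparc, were at least 2-fold lower in both mutants, with mean levels of all 14 of 9.03 (WT), 6.87 (MI) and 6.65 (RQ) and summed log2 levels of 126.4, 96.2 and 93.1. The marker counts here use no level filter. Without it 2.13% of all genes lay 2-fold or more from WT, in either direction, in RQ and 2.08% in MI. By its mean (5.92) Amn lay below the filter, and Cubn, Lama1 and Lrp2 passed it through WT alone. The other markers of that list, the transcription factor genes Gata4, Gata6, Sox7 and Sox17, read from 6.18 to 7.05 in WT and lay within 0.26 of it in the mutants, and Sparc (9.16 and 8.52) and Col4a1 (8.68 and 8.62) stayed well above the level filter in MI and RQ. The 8 pluripotent cell markers had mean levels of 9.24 (WT), 9.56 (MI) and 10.83 (RQ) (summed 73.9, 76.5 and 86.6), and 7 of them were at least 2-fold above WT in RQ. In MI 4 of the 8 read above WT and 4 below. Pou5f1 read 11.39 (WT) and 10.21 (MI), while Nanog read 10.27 and 11.41. Nr0b1, at 6.20 (WT) and 6.18 (MI), lay below the level filter on those arrays. The 11 fibroblast and mesenchyme markers averaged 6.52, 7.93 and 6.41 (summed 71.7, 87.3 and 70.5), and 5 were at least 2-fold above WT in MI, among them Vim (10.89), S100a6 (10.36) and Dcn (9.54). All 11 read above WT in MI, where 63.5% of all genes did, but Thy1, Pdgfrb, Postn and Col3a1 by no more than 0.09, and 7 did so after the lowess correction. Blood markers and markers of nerve and heart had mean levels between 6.19 and 6.59 on every array, near the level filter. Single markers lay apart from these means. Cd34 read 5.61 (WT), 6.71 (MI) and 5.69 (RQ), 2.15-fold above WT in MI, and Nes read 7.97, 8.22 and 7.81. High signals were thus those of most pluripotent cell markers on every array, of structural and uptake genes of endoderm most of all on the WT array, and of part of the mesenchyme list on the MI array. The part of these cell types in the higher readings of Gadd45a, Trp53inp1, Sesn1, Sesn2 and Apaf1 in RQ, and in the lower readings of Bbc3 and Ei24 in MI, was not tested.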

How the data were processed

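Biotin-labelled RNA (6 ug total RNA per sample, per the labels) was hybridized to 1 Affymetrix array for each of WT, MI and RQ. The authors deposited a log2 signal for each of 45101 probe sets, and these values were used. Per the submitters' processing notes the tools were Partek and RMA; versions, the order of steps and joint normalization of the arrays are not stated there. The log2 scale was read from the range of values (4.74 to 14.11). RMA compresses low signals, so differences near the level filter can understate a ratio.

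Probe sets with 1 gene symbol, 34945 without controls, gave 18193 genes. Each gene was read from its brightest probe set, by the mean of the 3 arrays. Counts were taken at 2-fold and 1.5-fold among 11969 genes whose mean reached log2 6.31. With 1 array per genotype nothing was tested. The counting was checked on data made with known changes. The genes described with all values were those above the filter with arrays at least 0.58 apart, plus Cdkn1a, Mdm2, Bbc3 and Pmaip1, and up to 4 genes of each pathway list with the largest difference; the other targets are given because every member is accounted for. The members and lists were chosen with earlier results of these data known. Alternatives were median centring, quantile normalization again, lowess correction (span 0.3, 3 iterations, statsmodels 0.14.6), other level filters, other choices of probe set, other fold limits and means. Rfwd2 was matched to the platform symbol Cop1 through RefSeq synonyms.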

Additional observations from a re-analysis of the deposited data

How the results depend on the processing

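The median difference of the targets stayed between 0.07 and 0.11 in RQ against WT under every alternative run. In MI against WT it was 0.03, and it changed sign with the arrays centred on their medians (-0.03), with the filter at the 75th percentile (-0.07) and with the mean in place of the median (-0.06), so it has no settled direction. In RQ against MI it was 0.08, and it ranged from 0.01 with the arrays quantile-normalized again to 0.24 with the filter at the 75th percentile, where all genes had 0.11. The count at 2-fold was 0 against WT in both mutants under each scaling, filter and probe set choice, where 2.08% to 5.08% of all genes were counted. At the 1.5-fold limit it was 5 of 28 in RQ, against 11.2% of all genes, and 2 of 28 in MI, against 10.4%. The 5 in RQ include Apaf1, which passed the filter through its RQ signal. In RQ against MI the count of 2 became 1 after the lowess correction (Gadd45a), against 1.87% of all genes. It was 0 with the arrays quantile-normalized again, against 1.82%, and 0 at the 3-fold limit, against 0.409%. For the cause of these shifts, the lowess and quantile settings remove the lower readings of MI at high signal by construction. No paired analysis was possible because each genotype has 1 array, and no replicate could be left out for the same reason. Without detection calls or scanner files here, no gene could be called absent, and signal near the filter limits the repair genes, Fas, Dram1, Apaf1, Plk3 and Tnfrsf10b most.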
